A study of Mus musculus with 2 samples.

Results

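The genes described here encode the phase II conjugation enzymes of 3 families, the glutathione S-transferases (Gst), the sulfotransferases (Sult) and the UDP-glucuronosyltransferases (Ugt). Members were all rows whose symbol begins with Gst and a class letter and number, with Sult1 to Sult5 or with Ugt1 to Ugt3, and which held at least 10 unique molecular identifiers (UMIs, each standing for 1 captured transcript) over both libraries. The count table held 31053 genes, of which 62 matched by symbol and 49 passed the minimum, namely 20 Gst, 16 Sult and 13 Ugt genes. The other 13 symbols held 0 UMIs (7 genes) or up to 9 (6 genes). The smallest member was Sult1e1 with 14 UMIs, and the largest symbol left out was Ugt1a9 with 9.

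The data were 3' single-cell RNA counts of liver cells from 2 mouse groups with 1 library each, LaptTA;WT as the control and LaptTA;tetYAP after 4 weeks of YAP induction (tetYAP 4W). Both groups carried the LaptTA transgene, a tetracycline transactivator under the liver-restricted LAP promoter, and only the second carried the tetracycline-responsive mutant YAP, which doxycycline in the food kept off until 4 weeks of age. The cells were hepatocyte suspensions from collagenase-perfused livers of mice on a C57BL/6 background, and the sources used here give neither the number of animals per library nor their sex. The control library held 2989 barcodes and 9509885 UMIs (median 3117 per barcode) and the tetYAP 4W library 1524 barcodes and 6777210 UMIs (median 4150), with 0 barcodes in common.

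With 1 library per group no difference between the groups had a replicate check, and no test was made. Every interval below is an exact 95% interval and covers counting error only. Levels are given as CPM (counts per 1000000 UMIs of the library), each ratio is the log2 of the tetYAP 4W level divided by the control level, and a gene is called here when it differed by at least 2-fold. Xist, which is made from an inactive X chromosome, was counted 3 times in the control library and 4859 times in tetYAP 4W. The Y-linked genes Ddx3y (400 and 0 UMIs), Eif2s3y (200 and 0), Uty (72 and 0) and Kdm5d (44 and 0) were found in the control library only, so sex and YAP induction cannot be told apart in any difference between these libraries. Among the control barcodes 84.7% were hepatocyte-like (interval 83.3 to 86.0%), but in tetYAP 4W this share was 44.2% (interval 41.7 to 46.7%). A further 7.46% of control barcodes (223) were named stellate or mesenchymal-like. Their stellate markers stood at 556 CPM, against 9464 CPM in that class of tetYAP 4W. Their hepatocyte markers stood at 118908 CPM, against 117820 CPM in hepatocyte-like control barcodes, so the control share of 84.7% may be too low. Mitochondrially encoded genes took 28.7% of all control and 40.5% of all tetYAP 4W UMIs. What these shares contribute to the differences over all barcodes was not tested beyond the settings named below.

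Phase II enzymes make foreign compounds and endogenous ones such as steroids, bile acids and bilirubin more soluble by attaching a polar group to them. Gst enzymes attach glutathione to electrophiles, Sult enzymes transfer sulfonate from the donor PAPS to hydroxyl and amino groups, and Ugt enzymes transfer glucuronic acid from UDP-glucuronic acid. The liver is their main site, and in mouse liver several members are known to differ between the sexes: Sult2a1, Sult2a2 and Sult3a1 are female-predominant and Gstp1 is higher in males. Most members lie in tandem clusters, Gstm on chromosome 3, Ugt2b on chromosome 5, Sult2a on chromosome 7, Gsta1 and Gsta2 on chromosome 9 and Gstp on chromosome 19.

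The upstream sequences below (RefSeq, GRCm38.p6, the mm10 build of the files) belong to members on which the results turn. Gstp1 (chr19:4037913-4038162, minus strand) was the most abundant member of the control library, and Gsta3 (chr1:21240335-21240564, plus strand) that of the tetYAP 4W library. Gstm2 (chr3:107986421-107986670, minus strand) was the only Gst gene at least 2-fold higher in tetYAP 4W. Sult2a5 (chr7:13623717-13623966, plus strand) and Sult2a6 (chr7:14254871-14255120, minus strand) stand for the Sult2a genes that were nearly absent from the control. Ugt2b37 (chr5:87254789-87255038, minus strand) and Ugt2b38 (chr5:87424204-87424453, minus strand) lie in the same gene cluster and differed in opposite directions. Each run lies directly before the annotated gene and is read 5' to 3' on the gene's strand, and capitals mark matches to the 4 motifs searched.
Gstp1: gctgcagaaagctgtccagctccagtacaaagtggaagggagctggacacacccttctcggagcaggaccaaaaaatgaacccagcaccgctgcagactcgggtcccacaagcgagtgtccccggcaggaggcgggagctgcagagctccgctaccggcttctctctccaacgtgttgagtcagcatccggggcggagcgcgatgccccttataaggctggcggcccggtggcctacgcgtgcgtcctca
Gsta3: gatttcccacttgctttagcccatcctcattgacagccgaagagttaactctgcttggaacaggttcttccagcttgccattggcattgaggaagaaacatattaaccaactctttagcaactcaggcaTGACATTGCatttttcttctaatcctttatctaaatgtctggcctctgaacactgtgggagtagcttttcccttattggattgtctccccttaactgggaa
Gstm2: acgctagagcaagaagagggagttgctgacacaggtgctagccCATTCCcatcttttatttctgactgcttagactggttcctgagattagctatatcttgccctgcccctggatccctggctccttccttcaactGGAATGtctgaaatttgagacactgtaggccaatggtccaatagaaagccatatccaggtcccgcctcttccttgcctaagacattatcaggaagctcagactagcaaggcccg
Sult2a5: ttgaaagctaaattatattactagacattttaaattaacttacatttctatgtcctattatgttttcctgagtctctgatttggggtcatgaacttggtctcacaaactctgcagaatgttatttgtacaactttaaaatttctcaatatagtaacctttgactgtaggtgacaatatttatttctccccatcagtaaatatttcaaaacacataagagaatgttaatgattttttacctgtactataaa
Sult2a6: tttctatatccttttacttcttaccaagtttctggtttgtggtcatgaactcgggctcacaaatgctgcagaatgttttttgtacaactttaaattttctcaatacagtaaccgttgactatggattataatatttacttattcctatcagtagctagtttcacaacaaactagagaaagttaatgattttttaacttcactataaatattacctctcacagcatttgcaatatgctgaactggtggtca
Ugt2b37: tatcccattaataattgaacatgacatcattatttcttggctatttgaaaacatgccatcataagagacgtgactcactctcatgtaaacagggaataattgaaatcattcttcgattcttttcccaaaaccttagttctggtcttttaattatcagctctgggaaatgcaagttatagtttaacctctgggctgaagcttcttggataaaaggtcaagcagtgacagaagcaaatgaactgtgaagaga
Ugt2b38: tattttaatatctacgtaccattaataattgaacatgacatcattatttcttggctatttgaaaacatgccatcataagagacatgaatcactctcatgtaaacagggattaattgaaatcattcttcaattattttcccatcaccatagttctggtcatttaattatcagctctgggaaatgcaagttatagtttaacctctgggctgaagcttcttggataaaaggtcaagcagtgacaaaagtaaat

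The motifs, searched on both strands in the 250 bases before the start site, were TGACNNNGC (the core of the antioxidant response element), TTCNNNGAA (STAT5), GGAATG (TEAD, the DNA-binding partner of YAP) and CAAAGTCCA (HNF4). No member's window held more than 1 of the 4 motifs. Of the 43 members with a window, 2 held TGACNNNGC (Gsta3 and Gstm5), against 10.2% of all 32851 windows. TTCNNNGAA was found in 3 (Ugt1a6a, Sult3a1 and Gsta1; 7.02% of all windows), GGAATG in 5 (Gstm2, Gstm7, Sult1e1, Sult5a1 and Ugt3a1; 12.6%) and CAAAGTCCA in 0 (0.384%). Gstm2 held GGAATG at 2 places, and Sult1e1 was the other of the 9 members with a window and a level at least 2-fold higher that held it. A match is only a match of letters. Likeness of windows within subfamilies was taken as 1 less the edit distance of a global alignment over its length, which a shift between windows lowers. Ugt2b37 and Ugt2b38 stood at 84.8%, Gstp1 and Gstp2 at 77.6% and Sult2a5 and Sult2a6 at 54.8%. Gstp1 and Gstp3 stood at 46.8%, within the range of the 21 Gstm pairs (42.4 to 48.8%), so this value shows no particular likeness.

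Over all barcodes the 3 families did not move together. The 20 Gst genes fell from 6539 CPM in the control (62184 UMIs) to 1784 CPM in tetYAP 4W (12088 UMIs), a log2 ratio of -1.87 (-1.90 to -1.85). The 13 Ugt genes went from 2748 to 1015 CPM (26133 and 6878 UMIs; -1.44, -1.48 to -1.40). The 16 Sult genes had 827 and 946 CPM (7867 and 6410 UMIs; 0.19, 0.15 to 0.24), a value that turned to -0.37 when the libraries were scaled with TMM factors and to -0.40 with the all-gene median taken off. All members together took 1.01% of the control and 0.374% of the tetYAP 4W UMIs.

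Of the 49 members 12 were at least 2-fold higher, 19 at least 2-fold lower and 18 in between, where 38.3% of all 12621 genes with at least 10 UMIs were at least 2-fold higher and 7.89% at least 2-fold lower. The median log2 ratio was -0.59 for the members and 0.60 for all genes. The 12 higher members were 10 Sult genes, Gstm2 and Ugt2b37, and the 19 lower ones were 10 Gst, 7 Ugt and 2 Sult genes. The interval lay wholly past 2-fold for 12 members on the higher and 13 on the lower side. The share of all genes under this stricter rule was not counted, so these 2 counts do not set the members apart. In hepatocyte-like barcodes 14 of 48 members were higher and 15 lower, against 15.2% and 18.2% of all genes, and the medians were -0.58 for the members and -0.23 for all genes. With mitochondrially encoded genes left out of these totals 16 of 48 members were higher and 6 lower, against 29.7% and 3.16% of all genes. Without the cluster richest in mitochondrial RNA 18 of 47 were higher and 7 lower, against 36.4% and 3.55%. Both settings were chosen after the data were seen.

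**Figure D1:**
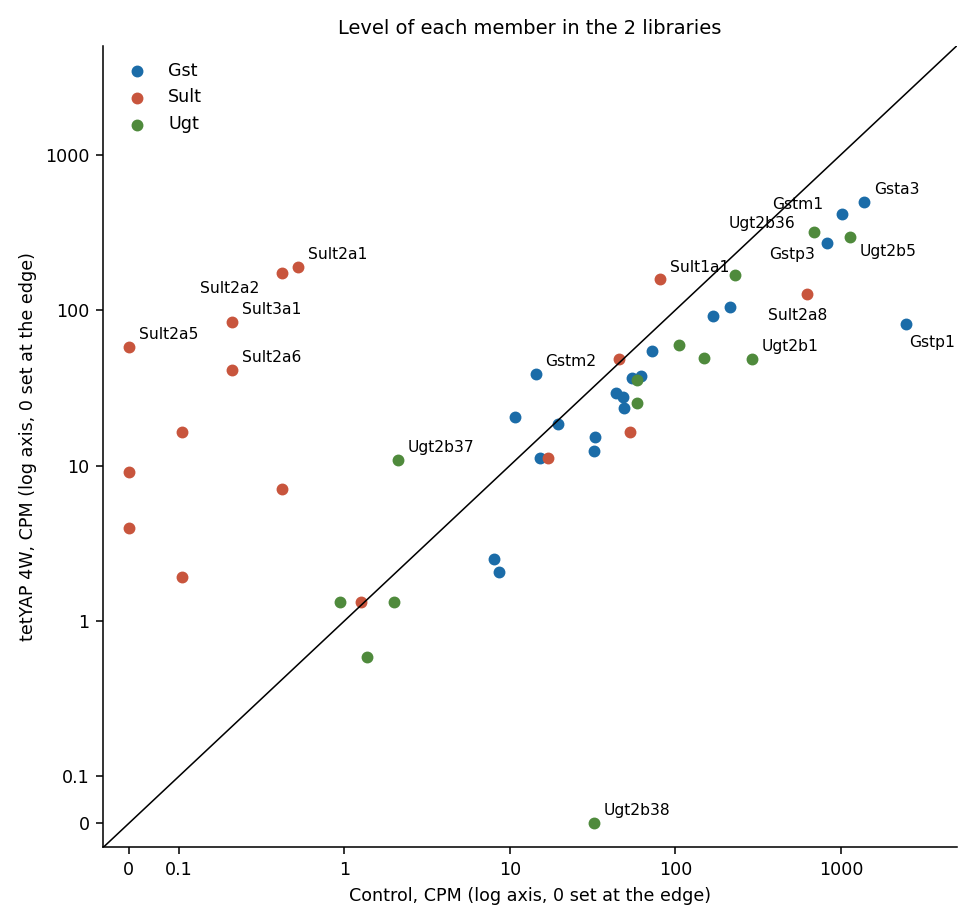
Level of each of the 49 members in CPM, control on the x axis and tetYAP 4W on the y axis, both log axes with 0 set at the edge and the line marking equal levels. Gstp1 lies at 2458 and 81.9 CPM, and the Sult2a and Sult3a genes other than Sult2a8 lie near the left edge.

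**Figure D2:**
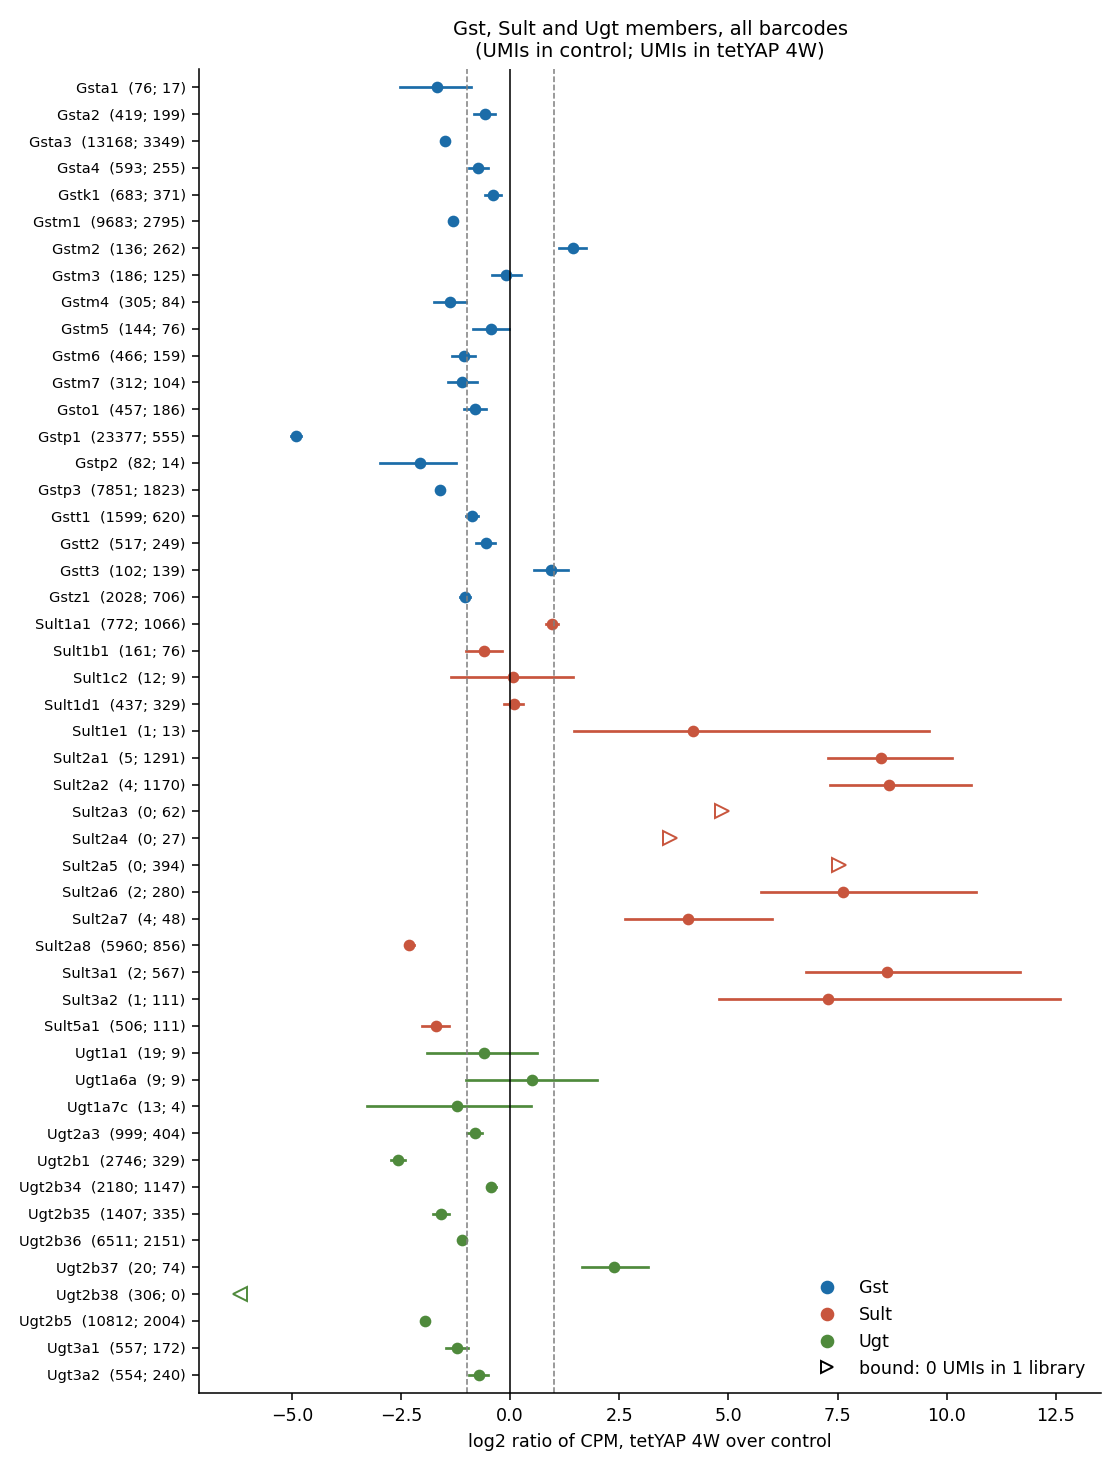
Log2 ratio of each member with its exact 95% counting interval, beside its UMIs in control and tetYAP 4W; triangles mark bounds where a library held 0 UMIs (floor of 3 UMIs) and dashed lines 2-fold. Most Gst and Ugt members lie left of 0, and 7 Sult2a and both Sult3a genes lie to the right of the 2-fold line.

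Among the Gst genes the pi class, which conjugates glutathione to a broad range of electrophiles, had the largest difference. Gstp1 was counted 23377 times in the control and 555 times in tetYAP 4W, or 2458 and 81.9 CPM, a log2 ratio of -4.91 (-5.03 to -4.79). Gstp3, in the same gene cluster, had 7851 and 1823 UMIs (-1.62, -1.69 to -1.54), and Gstp2 82 and 14 (-2.06, -2.99 to -1.23). Gstp1 thus went from rank 1 to rank 14 in the order of members by level and from 37.6% to 4.59% of the Gst UMIs, while Gstp3 had rank 5 in both libraries. Without Gstp1 the Gst sum differed by -1.26 (-1.29 to -1.23). Gstp1 and Gstp2 are alike at 98.7% of the last 300 bases of their transcripts, where 3' reads fall, so the UMIs assigned to each are uncertain.

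The alpha class, which also reduces lipid peroxides, was led by Gsta3 with 13168 and 3349 UMIs (1385 and 494 CPM; -1.49, -1.54 to -1.43). Gsta4, which acts on the lipid peroxidation product 4-hydroxynonenal, had 593 and 255 UMIs (-0.73, -0.95 to -0.51), and Gsta2 419 and 199 (-0.59, -0.84 to -0.34). Gsta1 had 76 and 17 UMIs (-1.67), and its last 300 transcript bases are 94.3% identical to those of Gsta2. All 4 alpha genes were thus lower, 2 of them by at least 2-fold. With the hepatocyte-like cluster richest in mitochondrial RNA left out, however, Gsta4 and Gsta2 stood at 0.20 and 0.13.

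The mu class did not move as 1 unit. Gstm1, its main member, had 9683 and 2795 UMIs (1018 and 412 CPM; -1.30, -1.36 to -1.24). Gstm4 had 305 and 84 UMIs (-1.37), Gstm7 312 and 104 (-1.10) and Gstm6 466 and 159 (-1.06), all below the 2-fold line. Gstm5 (144 and 76 UMIs, -0.43) and Gstm3 (186 and 125 UMIs, -0.08) lay between the lines. Gstm2 had 136 and 262 UMIs, 14.3 and 38.7 CPM, a log2 ratio of 1.43 (1.13 to 1.74), which was 0.87 with TMM factors. The 7 genes lie within 1 cluster on chromosome 3, where Gstm1 (108012250 to 108017973) is the next member after Gstm2 (107981702 to 107986420), and their last 300 transcript bases are alike at only 44.0 to 53.7%.

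Of the remaining classes, theta enzymes act on small halogenated compounds, zeta is maleylacetoacetate isomerase of tyrosine breakdown, omega reduces dehydroascorbate, and kappa is found in mitochondria and peroxisomes. Gstt1 had 1599 and 620 UMIs (-0.88), Gstt2 517 and 249 (-0.57) and Gstt3 102 and 139 (0.94, 0.56 to 1.32). Gstz1 had 2028 and 706 UMIs (-1.03, -1.16 to -0.91), Gsto1 457 and 186 (-0.81) and Gstk1 683 and 371 (-0.39). Over all barcodes only Gstz1 of these 6 genes was past 2-fold and only Gstt3 was higher in tetYAP 4W, but in at least 1 of the 8 settings described at the end Gstt1 (up to 0.04), Gstt2 (0.63), Gstk1 (0.36) and Gstz1 (0.19) were higher too. Gstt3 was past 2-fold in 5 settings and Gstz1 in 3.

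The Sult family held the largest ratios on the higher side, and its Sult2a cluster held differences in both directions. Sult2a enzymes sulfonate hydroxysteroids such as DHEA and bile acids. Sult2a1 had 5 UMIs in the control and 1291 in tetYAP 4W, or 0.526 and 190.5 CPM, a log2 ratio of 8.50 (7.28 to 10.13). Sult2a2 had 4 and 1170 UMIs (8.68, 7.32 to 10.56), and Sult2a6 2 and 280 UMIs (7.62, 5.75 to 10.67). Sult2a5 had 0 and 394 UMIs and was at least 184-fold higher, with the control set to a floor of 3 UMIs, and its exact interval began at 7.22 on the log2 scale. On the same floor Sult2a3 (0 and 62 UMIs) was at least 29.0-fold and Sult2a4 (0 and 27 UMIs) at least 12.6-fold higher (exact intervals from 4.52 and 3.26), and Sult2a7 had 4 and 48 UMIs (4.07, 2.62 to 6.01). These 7 genes together had 15 and 3272 UMIs, a log2 ratio of 8.26 (7.53 to 9.10).

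Sult2a8 lies between Sult2a6 and Sult2a7 (chromosome 7, 14410686 to 14446780) and went the other way, with 5960 and 856 UMIs, 627 and 126 CPM and a log2 ratio of -2.31 (-2.42 to -2.21). It made up 75.8% of the Sult UMIs in the control and 13.4% in tetYAP 4W. The sum of all 8 Sult2a genes therefore hardly differed, at 628 and 609 CPM (-0.04, -0.10 to 0.01), and the Sult sum of each library rested on different genes. Sult2a1 to Sult2a6 are alike at 75.0 to 95.3% of their last 300 transcript bases (15 pairs), so the UMIs assigned to each are uncertain. Gstp, Gsta1 with Gsta2, Sult2a, Sult3a and Ugt1a were also each summed to 1 unit. Of the 36 units 4 were at least 2-fold higher and 14 at least 2-fold lower, against 38.3% and 7.89% of all genes. The Sult2a unit joins genes that went opposite ways and so counts on neither side. Transcript ends of Sult2a7, Sult2a8 and Gstp3 were not compared, so not all summed members are known to be alike.

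Sult3a genes, whose products sulfonate amines, followed the 7 Sult2a genes: Sult3a1 had 2 and 567 UMIs (8.64, 6.78 to 11.69) and Sult3a2 had 1 and 111 UMIs (7.28, 4.78 to 12.60). Sult1a1, the main phenol sulfotransferase, had 772 and 1066 UMIs (81.2 and 157 CPM; 0.95, 0.82 to 1.09). Sult1d1, which acts on catecholamines and other phenols, had 437 and 329 UMIs (0.08), and Sult1b1, which acts on thyroid hormones and phenols, had 161 and 76 (-0.59). Sult5a1 had 506 and 111 UMIs and was lower (-1.70, -2.01 to -1.40). Sult1e1, the estrogen sulfotransferase, had 1 and 13 UMIs, and Sult1c2 had 12 and 9. In hepatocyte-like barcodes the Sult1a1 ratio was 1.11, and it was past 2-fold in 5 of the 8 settings described at the end.

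The Ugt2b genes act on steroids, bile acids and many drugs. Ugt2b5 had 10812 and 2004 UMIs (1137 and 296 CPM; -1.94, -2.01 to -1.87), and Ugt2b36 had 6511 and 2151 (685 and 317 CPM; -1.11, -1.18 to -1.04). Ugt2b1 had 2746 and 329 UMIs (289 and 48.5 CPM; -2.57, -2.74 to -2.41). Ugt2b35 (1407 and 335 UMIs, -1.58) was also past 2-fold, and Ugt2b34 (2180 and 1147 UMIs, -0.44) was not. Ugt2b38 had 306 UMIs in the control and 0 in tetYAP 4W and was at least 72.7-fold lower on the floor of 3 UMIs, and its exact interval ended at a log2 ratio of -5.88. Ugt2b37, whose upstream window is shown above next to that of Ugt2b38, had 20 and 74 UMIs, a log2 ratio of 2.38 (1.65 to 3.17), and was the only Ugt gene at least 2-fold higher. The last 300 transcript bases of Ugt2b37 and Ugt2b38 are alike at 87.3%, and those of Ugt2b38 and Ugt2b5 at 82.3%. The UMIs assigned to each of these genes are therefore uncertain, and they were not summed to 1 unit.

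Ugt2a3 had 999 and 404 UMIs (-0.82, -0.99 to -0.65). The Ugt3a genes, which use sugar donors other than UDP-glucuronic acid, had 557 and 172 UMIs for Ugt3a1 (-1.21, -1.46 to -0.96) and 554 and 240 for Ugt3a2 (-0.72). The Ugt1a genes, among them the bilirubin-conjugating Ugt1a1, share their 3' exons, and only 41 and 22 UMIs were assigned to 3 of them, Ugt1a1 (19 and 9), Ugt1a6a (9 and 9) and Ugt1a7c (13 and 4). Their levels were therefore not measurable one by one, and their sum gave -0.41 (-1.23 to 0.37).

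**Figure D3:**
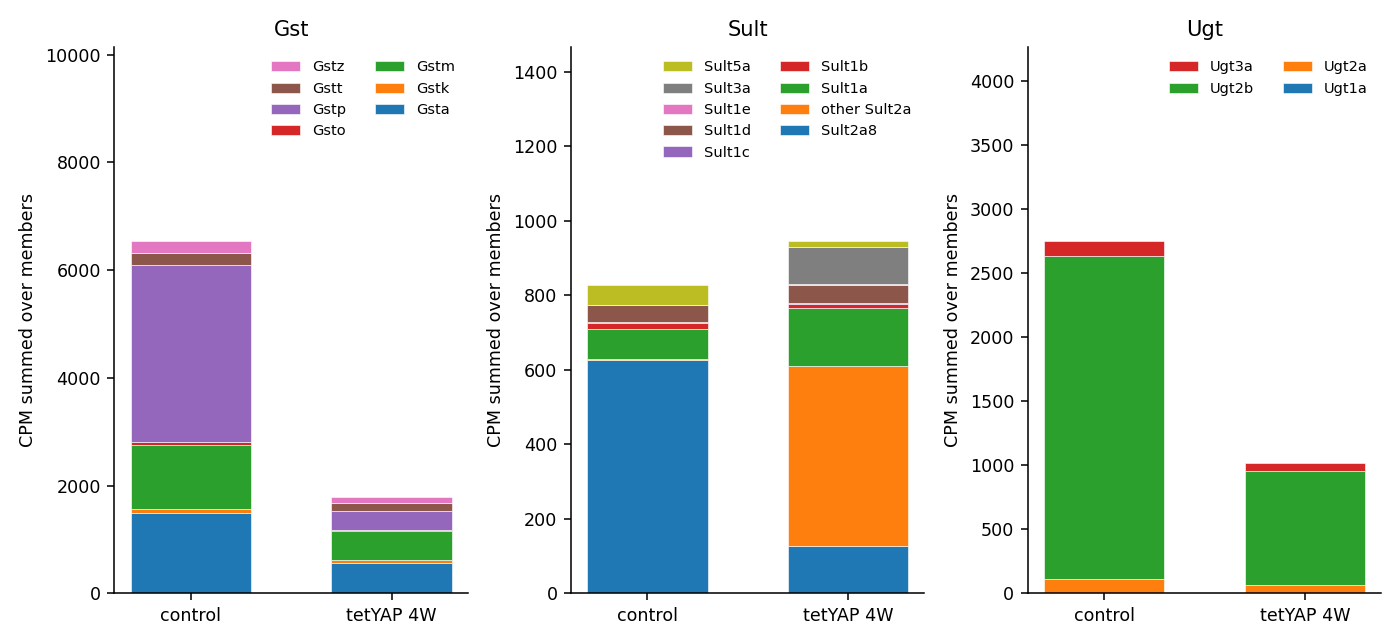
CPM summed over the members of each subfamily, stacked by subfamily, in the 2 libraries, with Sult2a split into Sult2a8 and the other 7 genes. The Gst bar falls from 6539 to 1784 CPM, mostly in Gstp, and the Sult bars are of similar height but of different makeup.

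Hepatocyte RNA was found in the barcodes of every class, and with it the RNA of the members. The 12 hepatocyte markers took 92872 CPM in hepatocyte-like barcodes of the tetYAP 4W library and 67691 CPM in T or NK-like ones, and 117820 and 86552 CPM in those of the control. Likewise Gst stood at 2018 CPM in hepatocyte-like, 1982 CPM in erythroid-like, 1629 CPM in T or NK-like and 1439 CPM in macrophage-like tetYAP 4W barcodes, and Sult at 1087, 1092, 859 and 755 CPM. Mitochondrially encoded genes, which these totals include, took 55.5% of UMIs in the hepatocyte-like barcodes. In the erythroid-like, T or NK-like and macrophage-like clusters of both libraries they took 30.4%, 23.8% and 30.9%. Levels without them were not taken by class, and leaving them out would raise the hepatocyte-like levels most. Hepatocyte-like barcodes held 43.2% of the UMIs of this library and 48.9% of its Gst, 49.7% of its Sult and 51.3% of its Ugt UMIs. A member's UMI in a barcode was thus by itself no sign that the cell expressed the gene. Sult2a1, for example, was detected in 58.5% of the 673 hepatocyte-like barcodes of tetYAP 4W (54.7 to 62.3%; median 4056 UMIs) and in 47.1% of 276 macrophage-like ones (41.1 to 53.2%; median 4084 UMIs), or in 20.5% and 18.1% after each barcode was thinned to 1000 UMIs. In the control it was found in 0.158% of 2531 hepatocyte-like barcodes.

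On totals that include mitochondrially encoded genes, Gstp1 in tetYAP 4W was no higher in hepatocyte-like barcodes than in most other classes. Such totals lower the hepatocyte-like values most, as said above, so the order of the classes may not hold without these genes. This limit applies to every comparison of classes in this paragraph. It had 69.7 CPM in hepatocyte-like barcodes (60.4 to 79.9), 84.2 in macrophage-like (68.6 to 102) and 97.7 in T or NK-like ones (74.9 to 125), and only the erythroid-like class was lower (28.9 CPM on 4 UMIs), against 2513 CPM in the hepatocyte-like barcodes of the control. In the tetYAP 4W library 33 members had a level above the hepatocyte-like interval in at least 1 other class, but for only 4 did the whole interval of a named class lie above it, each on few UMIs: Gstm5 (5 UMIs) and Gstt2 (10 UMIs) in stellate or mesenchymal-like, Gstk1 (16 UMIs) in erythroid-like and Gstp2 (9 UMIs) in macrophage-like barcodes. The same was true of Gstp1 in the unnamed cluster (112 CPM, 85.0 to 144). How many of all genes met either rule was not counted, so the counts of 33 and 4 do not set the members apart. Some of these classes were small, such as the 20 stellate or mesenchymal-like barcodes. Gstm2 had 59.9 CPM in endothelial-like (43.7 to 80.2) and 37.9 CPM in hepatocyte-like barcodes (31.2 to 45.6). Mitochondrially encoded genes took 22.1% of UMIs in the cluster with 125 of these endothelial-like barcodes and 55.5% in the hepatocyte-like ones. Whether the Gstm2 difference remains without them was not tested. Gstm2 was detected in 33.9% of 127 endothelial-like barcodes (median 6077 UMIs) and in 14.1% of the hepatocyte-like ones, or in 5.51% and 2.53% after thinning.

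**Figure D4:**
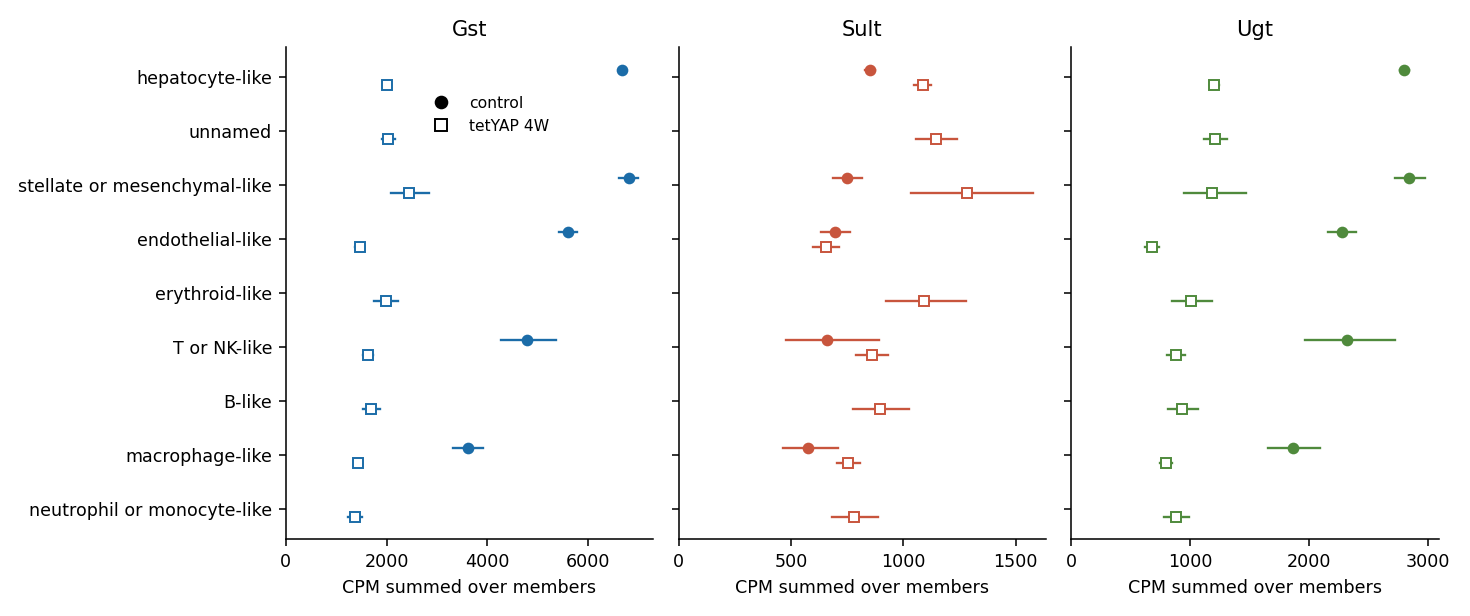
CPM summed over Gst, Sult and Ugt members in each cell class of the control (filled circles) and tetYAP 4W library (open squares) with exact 95% counting intervals; classes with fewer than 10 barcodes in a library are left out. For Gst and Ugt every control class shown lies above every tetYAP 4W class. The control class named stellate or mesenchymal-like held hepatocyte markers at 118908 CPM, much as the hepatocyte-like class did (117820 CPM).

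Hepatocyte-like clusters were those in which no other class had 3 raised markers or more markers among the leading genes; their own 12 markers took 7.37 to 12.5% of UMIs and were raised 3-fold in none of them. A cluster of 149 tetYAP 4W barcodes with a like share (8.71%) stayed unnamed. Each of the 7 hepatocyte-like clusters lay in 1 library, and those of tetYAP 4W differed in their members' levels. One of 462 barcodes, with 62.5% mitochondrial UMIs and the pancreatic enzyme genes Pnlip, Prss2 and Ctrb1 as its 3 leading genes by fold, which go against the name, had 1474 CPM of Gst, 814 of Sult and 1040 of Ugt. Another of 133 barcodes, with 37.1% mitochondrial UMIs, had 4067, 2021 and 1729 CPM, and the third, of 78 barcodes with 38.9%, had 2331, 1397 and 1451 CPM. With mitochondrial UMIs left out of the totals, Gst stood at 3928, 6470 and 3817 in these clusters, against 6280 to 9895 in the 4 control clusters, and Sult at 2169, 3215 and 2287, against 1135 to 1735. For Gst the 133-barcode cluster lay above only the control cluster of 129 barcodes (6280), and the other 3 control clusters stood at 9137 to 9895. Its leading genes included the members Sult2a6 (68 UMIs, 133 CPM), Gstm3 (30 UMIs, 58.7 CPM), Gstm6 and Sult3a2 (23 UMIs), although members had been left out of the clustering. Gstp1 had 137 CPM there (107 to 173), below the 1171 to 2847 CPM of the control clusters, and the 7 Sult2a genes other than Sult2a8 had 1098 CPM (1009 to 1193). Sult1a1 was highest in the 78-barcode cluster, at 389 CPM (323 to 464).

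Hepatocytes differ in enzyme content along the axis from portal to central vein, so hepatocyte-like barcodes of each library were cut into 3 equal parts by the share of pericentral among pericentral and periportal list UMIs. In the control this share went from 18.7 to 47.4% over the parts, a spread that the sorting itself makes. Gst stood at 6690, 6742 and 6575 CPM in the parts, Sult at 864, 836 and 857 and Ugt at 2788, 2754 and 2867. Whether the parts follow the axis was not tested, so these like levels do not show an absence of zonation. Of 32 members with at least 50 UMIs in the outer parts 31 had intervals that included no difference, and Gstp1 had a log2 ratio of pericentral to periportal part of -0.05, where 1.88% of 4988 genes outside the 2 lists had intervals wholly higher in the pericentral and 3.47% in the periportal part. In tetYAP 4W 24 of 29 members had such intervals and 5 were higher in the pericentral part, against 4.44% of 2117 genes (6.71% in the periportal part). These 5 were Gstm3 (1.23, 0.32 to 2.21), Sult2a6 (0.97, 0.37 to 1.59), Sult3a1 (0.56, 0.15 to 0.98), Sult2a5 (0.52, 0.01 to 1.04) and Gstm1 (0.31, 0.13 to 0.49). All 5 were also higher in the 133-barcode tetYAP 4W cluster than in the 462-barcode one, such as Gstm3 (58.7 and 15.2 CPM) and Gstm1 (1057 and 340 CPM). How these clusters spread over the parts was not counted, so the difference between parts may be one between clusters. Barcodes of 1 library are not replicates, and RNA shared among barcodes is part of each value.

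The genes around the 3 reactions were counted from fixed lists. Of 11 measured genes for glutathione supply 1 was at least 2-fold higher and 4 at least 2-fold lower (median -0.61). Among the most abundant, Gclm and Gclc, the 2 subunits of the enzyme that limits glutathione synthesis, had 1924 and 578 UMIs (-1.25) and 1934 and 439 UMIs (-1.65), Cbs of the transsulfuration pathway had 1849 and 613 (-1.10), and Mat1a, which makes S-adenosylmethionine, had 3442 and 2104 (-0.22). Of 10 genes for PAPS and sulfate supply 2 were higher and 1 lower (median 0.29), and the sulfate carrier Slc26a1 (533 and 529 UMIs, 0.48) and the PAPS synthase Papss2 (437 and 283, -0.14) lay between the lines. Of 8 genes for UDP-glucuronic acid supply 2 were higher and 1 lower (median -0.56), with Ugp2 at 1315 and 577 UMIs (-0.70), the carrier Slc35d1 at 870 and 321 (-0.95) and Ugdh, which makes the donor itself, at 666 and 177 (-1.42). All genes had a median of 0.60 in this comparison, with 38.3% at least 2-fold higher and 7.89% at least 2-fold lower. In hepatocyte-like barcodes 0 of 10 glutathione genes were higher and 4 lower, and 0 of 10 PAPS and sulfate genes higher and 2 lower. Of 8 UDP-glucuronic acid genes 1 was higher and 1 lower there, against 15.2% and 18.2% of all genes.

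Of 22 other conjugation enzymes outside the 3 families 4 were higher and 10 lower (median -0.34). The shares over all genes, for this and the next lists, were 38.3% higher and 7.89% lower. The microsomal glutathione transferase Mgst1 had 41546 and 8318 UMIs (-1.83, -1.87 to -1.80), more than any member. The methyltransferase Gnmt (8210 and 2384 UMIs, -1.30) and the epoxide hydrolase Ephx2 (2948 and 541, -1.96) were also lower. Of 14 transporters of conjugates and their precursors 5 were higher and 3 lower (median -0.06), and the uptake carriers Slco1b2 and Slco1a1 had 4886 and 1790 (-0.96) and 4911 and 905 UMIs (-1.95). Of 20 xenobiotic sensors and liver transcription factors 2 were higher and 6 lower (median -0.23), among the most abundant Cebpb with 1384 and 1339 UMIs (0.44), Cebpa with 1350 and 418 (-1.20) and Hnf4a with 904 and 386 (-0.74). Of 13 YAP target genes 12 were higher and 1 lower (median 2.13), with Axl (70 and 640 UMIs, 3.68) and Crim1 (64 and 257, 2.49) among the most abundant. How far the unlike cell classes of the libraries enter these ratios was not tested. In hepatocyte-like barcodes the higher and lower counts were 2 and 11 of 20 other enzymes and 3 and 2 of 12 transporters. They were 1 and 4 of 20 sensors and factors and 8 and 1 of 10 YAP targets, against 15.2% and 18.2% of all genes.

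Genes known for a sex-biased level in mouse liver differed most. All 10 measured genes of the female-biased list were at least 2-fold higher in tetYAP 4W (median 6.04), with A1bg at 3 and 2168 UMIs and the cytochrome P450 genes Cyp3a44 at 2 and 565 and Cyp2b9 at 1 and 535. Of 12 male-biased genes 11 were at least 2-fold lower and 1 in between (median -5.24), with Serpina1e at 91284 and 1990 UMIs (-5.03), Mup20 at 44092 and 166 (-7.56) and Mup11 at 30825 and 49 (-8.81). Of 11 growth hormone and sex-biased regulators 4 were higher and 3 lower (median 0.57), with the growth hormone receptor Ghr at 2989 and 705 UMIs (-1.60) and the feedback inhibitor Socs2 at 144 and 162 (0.66). Over all genes 38.3% were higher and 7.89% lower. In hepatocyte-like barcodes all 10 female-biased genes were higher and all 12 male-biased genes lower, and of 10 regulators 3 were higher and 2 lower. The all-gene shares there were 15.2% and 18.2%.

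Across 8 settings of scaling, barcode choice and weighting, 11 of the 38 members with at least 100 UMIs stayed at least 2-fold apart on the same side. The share of all genes that did so was not counted, so this number does not set the members apart from other genes. Sult2a1, Sult2a2, Sult2a5, Sult2a6, Sult3a1 and Sult3a2 were higher in all 8, and the lowest value of any of them was 5.13 (Sult3a2). Gstp1 (-5.47 to -4.50), Ugt2b38, Ugt2b1 (-3.13 to -1.60), Sult2a8 (-2.87 to -1.41) and Ugt2b5 (-2.50 to -1.10) were lower in all 8. The other 11 lower members of these 38 were past 2-fold in 3 to 7 settings, and 2 of them, Gstm6 and Gstz1, changed sign to 0.13 and 0.19 when the hepatocyte-like cluster richest in mitochondrial RNA was left out. Among the 38 members 13 had both signs across the settings, namely these 2, Gstm3 (-0.65 to 1.25), Ugt2b34 (-0.998 to 0.556), Sult1d1 (-0.48 to 1.10), Sult1b1 (-1.16 to 0.33), Ugt2a3 (-1.38 to 0.09), Ugt3a2 (-1.28 to 0.06), Gsta2, Gsta4, Gstk1, Gstt1 and Gstt2. Gstm2 was at least 2-fold higher in 7 settings.

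**Figure D5:**
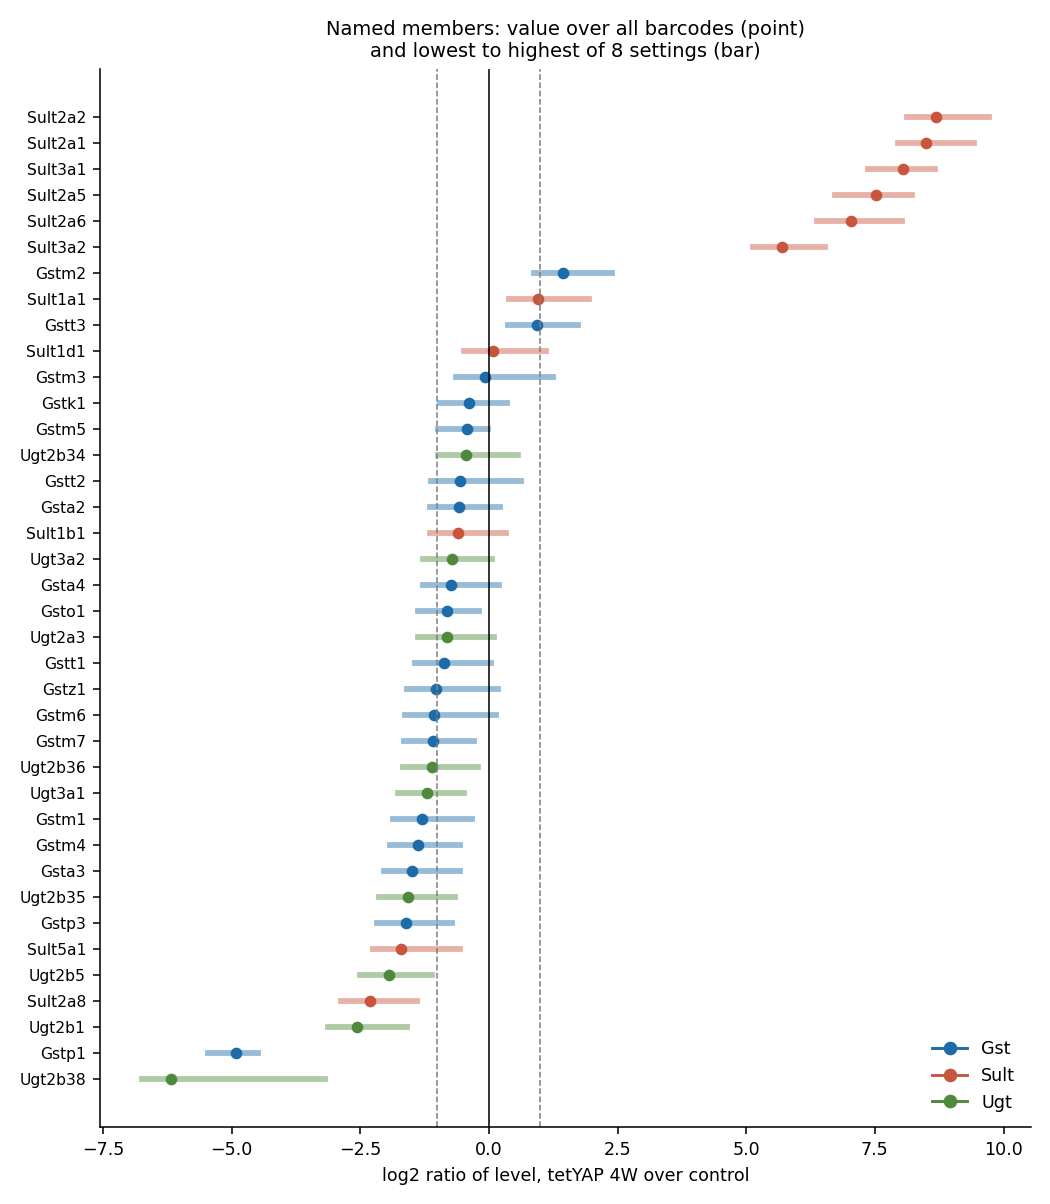
Log2 ratios over all barcodes for the 38 members that held 100 UMIs or more (points, counts under 3 set to 3 UMIs) and the lowest to highest value over 8 settings (bars), with dashed lines at 2-fold. The 6 Sult2a and Sult3a genes at the top and the 5 genes at the bottom keep clear of the 2-fold lines, and the bars of most other genes cross 1 of them.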

How the data were processed

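Hepatocyte suspensions of both groups were profiled with the Chromium 3' chemistry. The authors aligned and counted the reads with Cell Ranger 3.0.0 against mm10, and the deposited table holds raw UMI counts per gene and barcode. The study limited the cells per condition and the UMIs per barcode and used Seurat 3; the table ends at 7277 and 7493 UMIs per barcode, so it was already filtered. Here UMIs were summed per library, or per library and cell class, and scaled to CPM. Intervals are exact Poisson (levels), binomial (shares) or conditional binomial (ratios) at 95%, and cover counting error only. A library with fewer than 3 UMIs of a gene was set to 3 for ratios and counts of called genes; ratios printed for 1 or 2 UMIs are without that floor. Barcodes were clustered with scanpy 1.11.5 without the members, and clusters were named from markers raised at least 3-fold, the remainder being hepatocyte-like unless another class's markers led; doublets were not called. TMM factors came from edgeR 4.0.16, as a scaling only. Members with at least 100 UMIs were named. Transcript ends were compared in GENCODE vM1, upstream windows in RefSeq, both by the edit distance of a global alignment over length. The members and lists were chosen with earlier results of these data known.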

Additional observations from a re-analysis of the deposited data

How the results depend on the processing

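No paired analysis was possible because each group had 1 library, and no library could be left out. The Gst, Sult and Ugt sums (log2 ratio) were -1.61, 0.45 and -1.18 with mitochondrially encoded genes left out of the totals, -2.44, -0.37 and -2.00 with TMM factors, -1.91, 0.13 and -1.63 without barcodes over 30% mitochondrial UMIs, and -1.76, 0.30 and -1.37 with barcodes weighted equally. In hepatocyte-like barcodes they were -1.72, 0.35 and -1.22, or -1.05, 1.03 and -0.54 with mitochondrially encoded genes left out of the totals, and -0.97, 1.07 and -0.79 without the cluster richest in mitochondrial RNA. Relative to the median of all genes they were -2.47, -0.40 and -2.03. The Gst and Ugt sums were thus lower in all of these settings, and the Sult sum was lower in 2. The median of the 38 named members was -0.77, and -0.51 (mitochondrially encoded genes left out), -1.33 (TMM), -0.053 and 0.049 (the last 2 hepatocyte-like settings). Members at least 2-fold lower numbered 6 and 7 in those 2 settings (3.16% and 3.55% of all genes) and 30 relative to the median (19.4%). With Gstp, Gsta1 and Gsta2, Sult2a, Sult3a and Ugt1a each summed, 4 of 36 units were higher (38.3% of all genes). The Sult2a unit pools Sult2a8 with genes that went the other way, stood at -0.04 and was not among the 4. Of 38 named members 13 had both signs among the settings, and of those at least 2-fold apart Gstm6 (0.13) and Gstz1 (0.19) reversed without the cluster. The last 2 hepatocyte-like settings and the median were chosen after seeing the data. The cause of these shifts was not tested. Genes with few UMIs limit what can be read: 11 members held 10 to 99.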
